A study of Mus musculus with 16 samples.

Results

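The CCM complex and the GCKIII kinases were followed as 8 genes taken by name out of the 54193 genes quantified in mouse brain microvascular endothelial cells (mBMEC). They were *Pdcd10* (also called *Ccm3*), *Krit1* (*Ccm1*), *Ccm2*, its paralogue *Ccm2l*, *Heg1*, and the kinases *Stk24*, *Stk25* and *Stk26*. Of these, 7 passed the filter on low counts. *Stk26* did not, and is given by its counts.

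The KRIT1, CCM2 and PDCD10 proteins form a scaffold inside endothelial cells, and mutations in any of their genes cause cerebral cavernous malformations, clusters of dilated and leaky brain capillaries. HEG1 is a membrane receptor that anchors KRIT1 at cell junctions, CCM2L is an endothelial relative of CCM2, and the complex restrains the kinase MEKK3 and, through it, the transcription factors KLF2 and KLF4. PDCD10 also binds and stabilises the 3 GCKIII kinases STK24, STK25 and STK26 and links them to the STRIPAK phosphatase complex.

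Poly(A) RNA was sequenced, without strand information, from cultures of mBMEC of adult mice aged 8 to 10 weeks that carried the endothelial Cre driver *Cdh5*(PAC)-CreERT2 and floxed *Pdcd10* alleles (*Pdcd10* fl/fl) on a C57BL/6J background. KO cultures had been exposed to 4-OHT, the ligand that activates the recombinase, and WT cultures had not, so the loss of *Pdcd10* and exposure to 4-OHT cannot be told apart. Cultures were left untreated (3 WT and 3 KO libraries), treated for 24 h with 10 µM propranolol, a beta-adrenergic blocker (2 WT+P and 3 KO+P), or treated for 24 h with 100 nM rapamycin, an mTORC1 inhibitor (2 WT+R and 3 KO+R). Every culture came from the pooled brains of several mice, had been selected with puromycin and was at passage 2. The p-values measure the spread between such cultures. In the main test they take the cultures as unpaired, and only fits with the replicate number as a block use the pairing.

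The 16 libraries held 18.83 M to 26.2 M estimated counts. All 14 endothelial markers examined were present in every library, with summed levels of 5770 to 18600 TPM, the length-scaled transcript abundance. The 9 mural cell markers summed to 21.6 to 517 TPM, with most of the highest sums from *Acta2*. The 6 fibroblast markers summed to 1.34 to 53.9 TPM, with *Col1a1*, *Col1a2*, *Dcn* and *Pdgfra* above 0 and *Lum* and *Dpt* at 0 in every library. The 6 microglia and macrophage markers summed to 3.08 to 41.2 TPM, mostly from *Cd68* (1.68 to 41.0 TPM), and the microglial *P2ry12* was at 0 throughout. In cultured cells a lower level can come from fewer cells of a type or from less RNA per cell, and these cannot be told apart.

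*Pdcd10* lies on the minus strand of chr3:75423789-75464748 (GRCm39). Its 8-exon coding transcript *Pdcd10-205* carried most of its reads. The following sequences show where its main transcript and a shorter one part. The first pair are qPCR primers for *Ccm3*, shown because they lie in exons that the shorter transcript lacks. They match exons 4 and 5 of *Pdcd10-205* (chr3:75436140-75436158 and chr3:75434964-75434984) and delimit 100 bases of it, and both also match the coding *Pdcd10-201*. Reads at these sites alone were not measured. The last sequence is the third and last exon of the retained-intron transcript *Pdcd10-202* (chr3:75440692-75440901, minus strand, GRCm39), with the 54 bases shared with exon 3 in capitals and the 156 bases read on into intron 3 in lower case. All are written from 5′ to 3′.
Ccm3 forward primer: tcaccgagtccctccttcg
Ccm3 reverse primer: gcccgtgccttttcatttagg
Pdcd10-202 last exon: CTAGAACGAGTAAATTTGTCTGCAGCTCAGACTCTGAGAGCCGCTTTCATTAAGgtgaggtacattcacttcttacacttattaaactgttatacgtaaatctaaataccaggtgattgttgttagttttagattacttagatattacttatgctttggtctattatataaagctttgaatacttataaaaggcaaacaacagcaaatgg
Neither primer matches *Pdcd10-202*, which ends before exon 4.

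*Pdcd10*, the gene targeted for deletion, was lower in KO than in WT cells, but 1 WT library did not show the level of its label. In CPM, counts scaled to the library size, *Pdcd10* was at 11.5, 31.2 and 47.0 in WT replicates 1, 2 and 3, at 60.8 and 32.5 in WT+P replicates 1 and 2, and at 52.0 and 27.7 in WT+R replicates 1 and 2. In KO cells it was at 9.72, 11.0 and 9.73 CPM, in KO+P at 16.7, 13.9 and 13.1 CPM, and in KO+R at 8.37, 7.83 and 9.53 CPM. The library labelled WT replicate 1 therefore lay below all 3 KO+P libraries and close to the untreated KO libraries, whereas the other 6 WT libraries, at 27.7 CPM or more, lay above every KO library. In the library labelled WT replicate 1, *Klf2* (269 CPM) and *Klf4* (68.5 CPM) lay within the range of the other WT libraries. Its summed mural markers (29.3 TPM, of which *Acta2* 26.4) were the lowest of the WT libraries and within the range of untreated KO libraries. Its fibroblast sum (3.47 TPM) also lay within that of untreated KO (3.2 to 45.4 TPM). Its endothelial sum (12900 TPM) lay below all untreated KO libraries (15400 to 18600 TPM). So did its microglia and macrophage sum (7.76 TPM, against 18.2 to 41.2 TPM). Much of these 2 sums came from *Ly6c1* (3590 TPM, against 6370 to 8630 in untreated KO) and *Cd68* (7.25 TPM, against 17.6 to 41.0). Whether its label is right was not tested, and results that rest on it are also given without it.

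**Figure D1:**
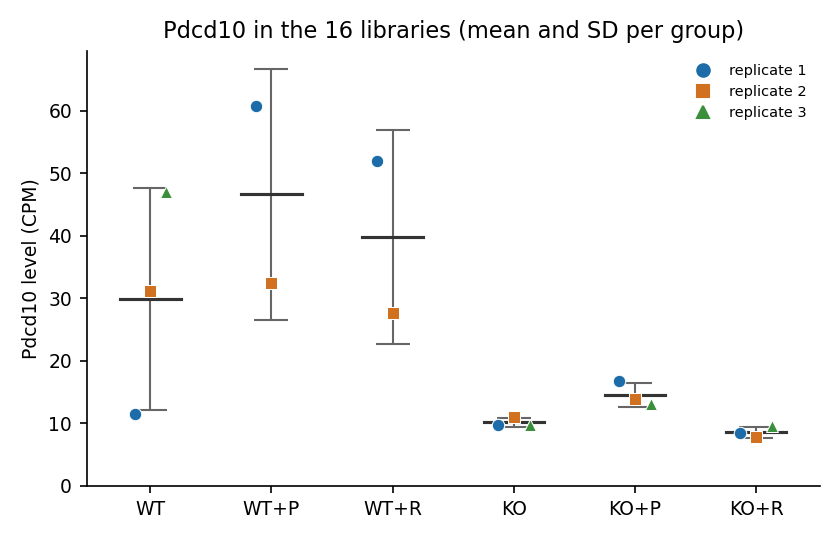
*Pdcd10* level in CPM (vertical axis) in each of the 16 libraries by group (horizontal axis). Points are libraries with the replicate number as colour and shape, lines are group means and bars the SD. WT replicate 1 (11.5 CPM) sits beside the KO libraries (9.72 to 11.0 CPM), and the other WT libraries sit at 27.7 CPM or more.

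Averaged over the 3 treatments, the log2 difference of *Pdcd10* between KO and WT was −1.82 (SE 0.25, 95% interval −2.35 to −1.28, adjusted p = 0.00406, edgeR quasi-likelihood test over 14838 genes). It was lower in KO in 7 of 7 pairs of same-numbered cultures, with KO to WT ratios of 0.161 to 0.845, the highest of which was the pair with WT replicate 1. Here and below, pairs that share a replicate number are not independent of each other. The share of all genes with such a count of pairs was not determined. Without WT replicate 1 the difference was −1.94 (adjusted p = 0.000735, 1.73% of genes called). *Pdcd10* was the only one of the 7 tested genes called in this comparison, at an adjusted p below 0.05 and a fold change above 1.5, where 1.76% of all genes were called (0.876% lower and 0.883% higher). At an unadjusted p below 0.05 there were 2 members and 16.7% of all genes. Over the 7 members the median difference was 0.05, and over all tested genes it was −0.01. Because of WT replicate 1, *Pdcd10* was not among the 0.418% of genes whose 9 KO and 7 WT libraries did not overlap.

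Within single treatments no member was called by edgeR. *Pdcd10* differed by −1.56 between untreated KO and WT cells (SE 0.40, adjusted p = 0.42), by −1.68 between KO+P and WT+P (SE 0.44, adjusted p = 0.481) and by −2.21 between KO+R and WT+R (SE 0.44, adjusted p = 0.194). The percentages of all genes called were 0.00674%, 0% and 0%. At an unadjusted p below 0.05 there were 2, 1 and 2 members in these comparisons, beside 6.07%, 6.19% and 5.72% of all genes. In each of them every KO library lay below every WT library of the same treatment, as did 6.5%, 8.77% and 9.79% of genes. DESeq2 called *Pdcd10* in all 3 comparisons (adjusted p = 0.025, 0.0434 and 0.000946), beside 0.431%, 0.398% and 0.519% of genes. With the replicate number as a block edgeR called no member in them, beside 0.182%, 0.0876% and 0.0944% of genes. With the block and WT replicate 1 left out, edgeR called *Pdcd10* between untreated KO and WT (−2.02, adjusted p = 0.0142, 0.445% of genes called) and between KO+R and WT+R (−2.17, adjusted p = 0.0132, 0.216% called), but not between KO+P and WT+P (−1.64, adjusted p = 0.052, 0.0539% called). Whether the size of the genotype difference depended on the drug was tested with an interaction term, and none of the 7 members was called, beside 0% of all genes (edgeR, *Pdcd10* unadjusted p = 0.531). At an unadjusted p below 0.05 the interaction gave 0 members and 0.519% of all genes, and DESeq2 also called no member.

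*Pdcd10* was higher with propranolol in 5 of 5 same-numbered pairs, at 1.04 to 5.29 times the untreated culture. The highest ratio again involved WT replicate 1, and the 3 KO pairs had ratios of 1.72, 1.27 and 1.34. All KO+P libraries lay above all KO libraries, a separation seen in 9.58% of genes in the same direction, and the fitted difference of 0.52 (SE 0.40) did not pass the test (adjusted p = 0.593). With rapamycin, *Pdcd10* was lower in 4 of 5 pairs, and the exception was WT+R against WT replicate 1 (ratio 4.52). The 3 KO pairs had ratios of 0.86, 0.714 and 0.98. All KO+R libraries lay below all KO libraries, a separation seen in 13.2% of genes in the same direction. The fitted rapamycin differences were −0.241 in KO (SE 0.402, adjusted p = 0.884) and 0.412 in WT (SE 0.435, adjusted p = 0.793), so neither was called.

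The transcripts of *Pdcd10* differed between the genotypes in composition, and *Pdcd10-205* also differed in level. *Pdcd10-205* (1927 bases as quantified) held 96.9% to 98.2% of the gene's estimated counts in 6 WT libraries and 88.8% in the library labelled WT replicate 1. In the 9 KO libraries it held 74.6% to 85.7%. Its estimated counts were 631 to 1289 in those 6 WT libraries, 222 in WT replicate 1 and 125 to 343 in KO libraries. In counts WT replicate 1 therefore lay within the KO range. The share of all transcripts whose composition separates the genotypes in this way was not determined. On the transcript level *Pdcd10-205* fell by 2.09 (SE 0.27, adjusted p = 0.0138, edgeR over 37241 transcripts), against 0.244% of transcripts called.

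*Pdcd10-202* consists of exons 1 and 2, exon 3 and the stretch of intron 3 printed above, and lacks exons 4 to 8. It was listed at 0 in WT replicate 3 and in all 4 drug-treated WT libraries, and held 4.02 estimated counts in WT replicate 2 and 8.39 in WT replicate 1. In KO libraries it held 18.4, 27.4 and 16.8 counts, in KO+P 35.8, 45.9 and 22.2, and in KO+R 12.1, 7.04 and 9.81. As a share of the gene this was 0% to 0.48% in 6 WT libraries, 3.36% in WT replicate 1 and 3.69% to 13.7% in KO. WT replicate 1 lay nearest to KO among the WT libraries in this measure too. The transcript was called higher in KO (edgeR adjusted p = 0.031, and 0.0233 with the replicate block, where 0.843% of transcripts were called), but with 1 library left out the call was kept in 3 of 16 fits, at adjusted p-values of 0.0186 to 0.117. Since 5 WT libraries were at 0, its fitted fold change depends on the prior count and is not given.

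**Figure D2:**
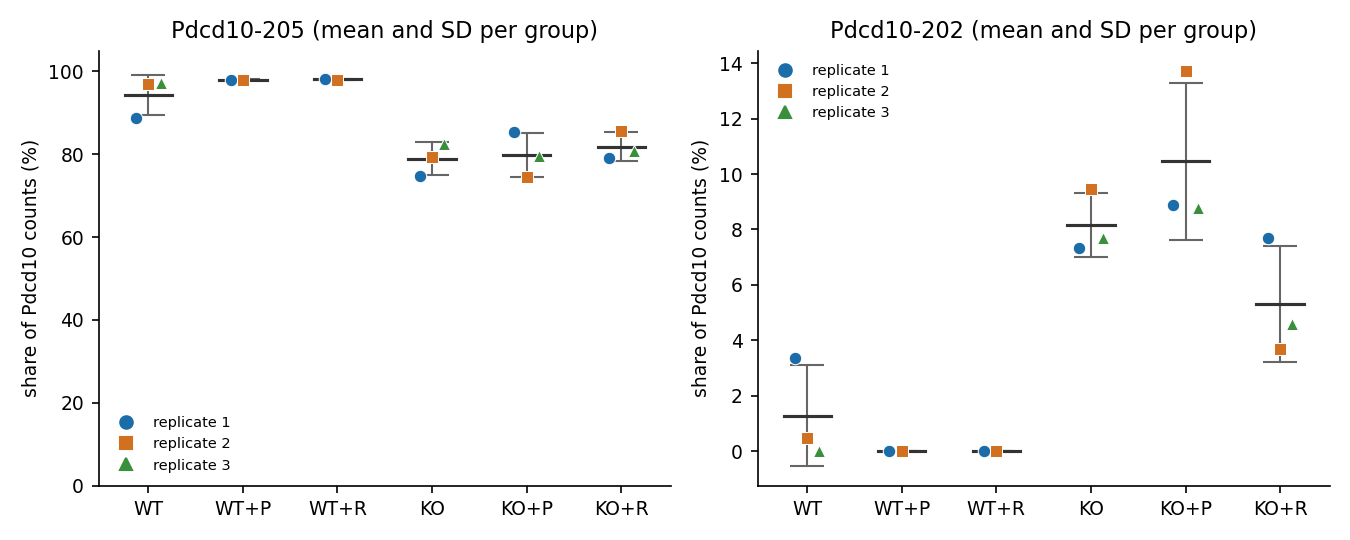
Share of the *Pdcd10* estimated counts assigned to *Pdcd10-205* (left) and *Pdcd10-202* (right) in percent (vertical axes) by group (horizontal axes), with 1 point per library, group means as lines and the SD as bars. The KO groups sit lower on the left (74.6% to 85.7%) and higher on the right (3.69% to 13.7%) than the WT groups, and WT replicate 1 lies between them.

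The other *Pdcd10* transcripts were sparse. The retained-intron transcript *Pdcd10-204* held 9.52 to 24.6 counts in every library, with a genotype difference of 0.15 (SE 0.26, adjusted p = 0.968), so it took a larger share in KO (2.37% to 9.79%) than in 6 WT libraries (0.97% to 2.32%) without a called difference in level. *Pdcd10-203*, also a retained-intron transcript, held 0 to 9.89 counts in WT and 1.6 to 21.8 in KO libraries (adjusted p = 0.336). The coding *Pdcd10-201* and *Pdcd10-206* held at most 12.4 and 3.65 counts and were not tested. Transcripts share exons and the estimates divide shared reads between them, an error that the test does not contain. Because the short transcripts weigh more per length, the summed *Pdcd10* level in TPM differed less between untreated groups (17.4 ± 2.49 in KO and 33.2 ± 20.0 in WT, SD, n = 3 each) than the level in CPM (10.1 ± 0.72 and 29.9 ± 17.8).

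*Ccm2l* was the member with the largest positive genotype difference. It was at 67.8, 74.4 and 35.1 CPM in WT, at 19.3 and 56.8 in WT+P and at 27.4 and 56.8 in WT+R. In KO it was at 109, 115 and 136 CPM, in KO+P at 39.2, 76.3 and 112, and in KO+R at 77.1, 110 and 111. *Ccm2l* was higher in KO in 7 of 7 same-numbered pairs, by 1.34 to 3.88 times, and the groups did not overlap without drug or with rapamycin, a separation in the same direction shown by 6.69% and 9.43% of genes. They overlapped with propranolol, where replicate 1 was low in both genotypes.

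Over the 3 treatments the *Ccm2l* difference was 1.08 on the log2 scale (SE 0.28, 95% interval 0.47 to 1.70), which missed the threshold (edgeR, adjusted p = 0.0614) and passed it with the replicate number as a block (1.07, SE 0.25, adjusted p = 0.0208). In the blocked fit 2 of the 7 tested members were called, *Pdcd10* lower and *Ccm2l* higher, where 4.47% of all genes were called. DESeq2 called *Ccm2l* as well (1.09, adjusted p = 0.00274, 3.71% called). Without WT replicate 1 the blocked difference was 1.22 (adjusted p = 0.0069, 4.94% called). Leaving out 1 library without the block gave differences of 0.89 to 1.41 at adjusted p-values of 0.0301 to 0.194, and the call was made without WT+P replicate 2 (1.41) and without KO+P replicate 1 (1.19).

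**Figure D3:**
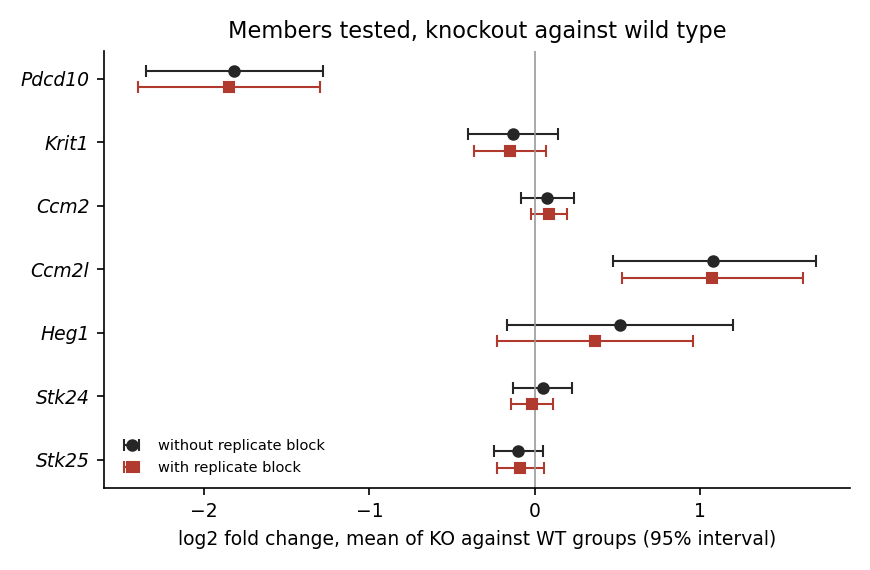
Log2 fold change of the 7 tested members (vertical axis) between KO and WT, averaged over the 3 treatments (horizontal axis), from the edgeR fit without the replicate block (black circles) and with it (red squares), with 95% intervals as bars. *Pdcd10* lies at −1.82 and *Ccm2l* at 1.08, and the intervals of the other 5 members include 0.

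*Ccm2l* was lower with either drug in every pair. With propranolol the ratios to the untreated culture were 0.284 and 0.763 in WT and 0.36, 0.663 and 0.821 in KO, with fitted differences of −0.64 (SE 0.50, adjusted p = 0.709) and −0.67 (SE 0.44, adjusted p = 0.54). With rapamycin they were 0.405 and 0.763 in WT and 0.708, 0.956 and 0.815 in KO, with fitted differences of −0.49 (SE 0.50, adjusted p = 0.783) and −0.27 (SE 0.44, adjusted p = 0.879). None of these differences passed the test, and some rested on 1 library. The WT+P difference was −1.61 without WT+P replicate 2 and −0.06 without WT+P replicate 1, and leaving out KO+P replicate 3 or replicate 1 gave a KO+P difference of −1.06 or −0.35. The WT+R difference was −1.10 without WT+R replicate 2 and −0.05 without WT+R replicate 1, and the KO+R difference was −0.09 without KO+R replicate 1.

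*Heg1*, the receptor, spread widely between libraries, and no drug or genotype difference in it was called by edgeR. It was at 737, 777 and 497 CPM in WT, 191 and 620 in WT+P, and 960 and 1308 in WT+R. In KO it was at 762, 944 and 1108 CPM, in KO+P at 174, 405 and 850, and in KO+R at 1405, 2338 and 2307. Every rapamycin library lay above every untreated library of its genotype, a separation in this direction shown by 14% of genes in WT and 10.9% in KO. *Heg1* was higher with rapamycin in 5 of 5 pairs, by 1.3 to 2.48 times, and lower with propranolol in 5 of 5, at 0.228 to 0.799 of the untreated culture.

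The fitted *Heg1* difference between KO+R and KO was 1.10 (SE 0.51, 95% interval 0.01 to 2.20, adjusted p = 0.389) and that between KO+P and KO was −0.98 (SE 0.50, adjusted p = 0.432), so neither was called. In WT the rapamycin and propranolol differences were 0.76 (SE 0.55, adjusted p = 0.661) and −0.72 (SE 0.57, adjusted p = 0.709). The propranolol differences moved with single libraries, to −1.70 or −0.58 in KO when KO+P replicate 3 or replicate 1 was left out, and to −1.81 without WT+P replicate 2 and −0.11 without WT+P replicate 1 in WT. DESeq2 with the replicate block called both KO differences (1.09, adjusted p = 0.038, 7.57% of genes called, and −1.13, adjusted p = 0.0344, 6.29% called), and edgeR with the block called neither (adjusted p = 0.137 and 0.138). Between genotypes *Heg1* differed by 0.52 (SE 0.32, adjusted p = 0.449). Every KO+R library lay above every WT+R library, a separation in this direction shown by 9.43% of genes. The fitted difference there was 0.83 (SE 0.57, 95% interval −0.41 to 2.07). The genotypes overlapped without drug and with propranolol.

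**Figure D4:**
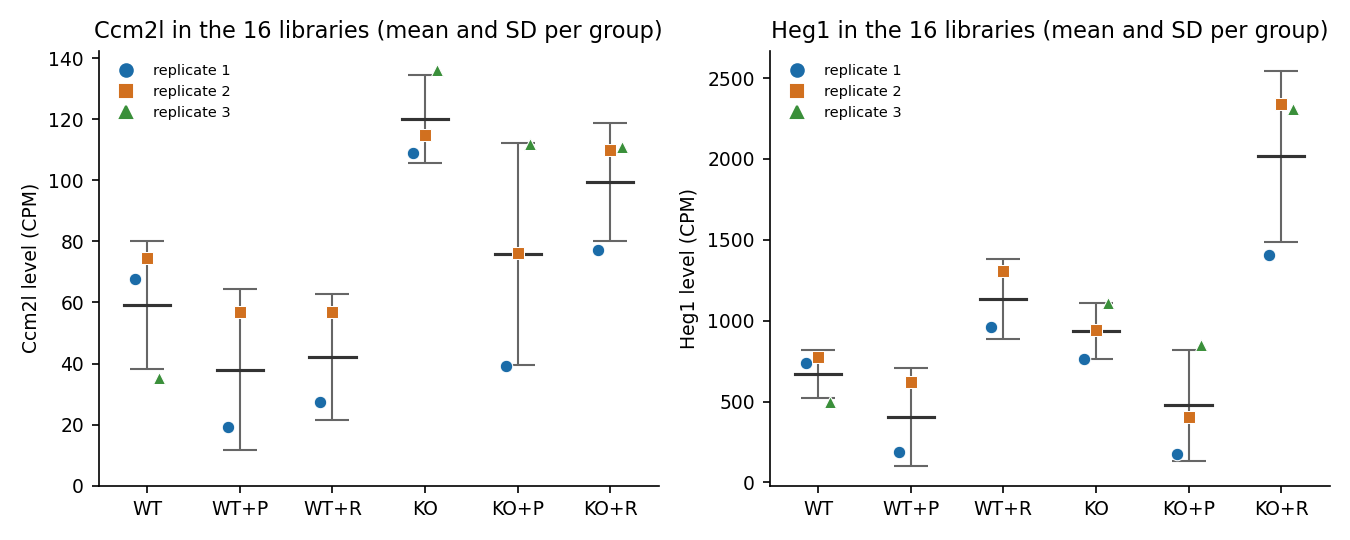
Levels of *Ccm2l* (left) and *Heg1* (right) in CPM (vertical axes) in the 16 libraries by group (horizontal axes), with 1 point per library, group means as lines and the SD as bars. *Ccm2l* is highest in untreated KO (109 to 136 CPM) and *Heg1* in KO+R (1405 to 2338 CPM), and replicate 1 is the lowest point of both propranolol groups.

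The endothelial markers moved with *Ccm2l* and *Heg1* in some libraries. Their summed level was 11900 to 12900 TPM in WT and 15400 to 18600 in KO, and it was lowest in WT+P replicate 1 (5770 TPM) and KO+P replicate 1 (7270 TPM), the libraries with the lowest *Heg1* and, within their groups, the lowest *Ccm2l*. *Ly6c1*, with 886 to 9160 TPM, made up much of this sum, with means of 7580 TPM in untreated KO and 3100 in WT. *Cldn5*, *Tek*, *Kdr*, *Flt1* and *Eng* also had higher means in untreated KO. *Pecam1*, *Cdh5*, *Erg*, *Tie1*, *Emcn*, *Esam*, *Slco1a4* and *Abcb1a* had lower ones, so the markers went both ways. Between genotypes 0 of the 14 markers was called by edgeR (2 with the replicate block, 3 by DESeq2, and 3 at an unadjusted p below 0.05), beside 1.76%, 4.47%, 3.71% and 16.7% of all genes. The mural marker sum was 29.3 to 149 TPM in WT, 153 to 281 in WT+P and 440 to 517 in WT+R, and 21.6 to 43.2 in KO, 31.5 to 72.8 in KO+P and 51.2 to 115 in KO+R. *Acta2*, the actin of smooth muscle, was called lower in KO (−2.02, adjusted p = 0.0106) and higher in WT+R than in WT (2.74, adjusted p = 0.0469). The other mural markers went both ways between untreated KO and WT, and their libraries overlapped. Means in KO and WT were 3.47 and 3.12 CPM for *Pdgfrb*, 0.71 and 0.521 for *Rgs5* and 2.43 and 2.07 for *Cspg4*. For *Des* they were 1.04 and 0.303 CPM, for *Notch3* 3.31 and 2.58 and for *Abcc9* 0.17 and 0.103. *Myh11* (0.836 and 1.05 CPM) and *Kcnj8* (0 and 0.0776 CPM) were lower in KO. The microglia and macrophage sum was 7.76 to 22.8 TPM in WT and 18.2 to 41.2 in KO, 9.68 to 20.0 in WT+P and 24.7 to 35.4 in KO+P, and 3.08 to 8.59 in WT+R and 4.35 to 15.7 in KO+R. *Cd68*, a lysosomal protein of macrophages, differed by 1.04 between genotypes (adjusted p = 0.145) and was called with the block (0.97, adjusted p = 0.0096). The other markers of this list were sparse and went both ways between untreated KO and WT. Means in KO and WT were 0.182 and 0.338 CPM for *Ptprc* and 0.0638 and 0.111 for *Aif1*. They were 0.337 and 0.263 CPM for *Csf1r* and 0.0253 and 0 for *Cx3cr1*, and *P2ry12* was at 0. The part of these markers in the *Ccm2l* and *Heg1* differences was not tested.

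The scaffold genes *Krit1* and *Ccm2* stayed in a narrow range. *Krit1* was at 26.6 to 30.8 CPM in WT, 18.3 to 33.3 in the drug-treated WT groups, 23.9 to 30.4 in KO and 19.7 to 31.6 in the drug-treated KO groups. Its genotype difference was −0.13 (95% interval −0.40 to 0.14, adjusted p = 0.665). *Ccm2* was at 65.2 to 74.0 CPM in WT and 71.4 to 77.1 in KO, with a range of 64.3 to 89.4 over all libraries. It differed by 0.08 between genotypes (95% interval −0.08 to 0.24, adjusted p = 0.668). Their groups overlapped in all 7 direct comparisons.

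Of the GCKIII kinases, *Stk24* (MST3) was at 52.3 to 57.9 CPM in WT and 52.9 to 60.7 in KO, and at 46.5 to 69.1 over all libraries. Its genotype difference was 0.05 (95% interval −0.13 to 0.23, adjusted p = 0.84). With rapamycin it was higher in 5 of 5 pairs, but by 1.01 to 1.14 times only. Of its exonic bases, 35.1% overlap *Farp1* on the other strand, from which reads cannot be told apart in these libraries.

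*Stk25* (YSK1) was the kinase with the highest counts. It was at 190, 165 and 158 CPM in WT, 141 and 151 in WT+P, and 143 and 122 in WT+R. In KO it was at 170, 153 and 146 CPM, in KO+P at 128, 122 and 146, and in KO+R at 139, 129 and 124. It was lower with rapamycin in 5 of 5 pairs, at 0.739 to 0.85 of the untreated culture, and lower with propranolol in 4 of 5. The rapamycin libraries lay below the untreated ones in both genotypes, as did those of 14.7% of genes in WT and 13.2% in KO, and so did the WT+P libraries, as in 10.3% of genes. The fitted rapamycin differences were −0.37 in WT (SE 0.12, adjusted p = 0.186, and 0.0771 with the block) and −0.26 in KO (SE 0.11, adjusted p = 0.343), so neither was called. The genotype difference was −0.10 (95% interval −0.25 to 0.05, adjusted p = 0.515). *Stk25* shares 23.5% of its exonic bases with *Farp2* and *Gm28536* on the other strand.

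*Stk26* (MST4) was close to undetected. It had 0 to 3 counts in each library and 0 in all KO+R libraries, at most 0.0729 TPM, so its genotype and drug differences were not detectable at this depth.

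Across the 4 drug comparisons edgeR called none of the 7 members, with or without the replicate block. At an unadjusted p below 0.05 there were 0 members for WT+P against WT, 1 for WT+R against WT, 1 for KO+P against KO and 2 for KO+R against KO. The percentages of all genes at that p were 9.87%, 12.6%, 12.6% and 12.5%. Called were 0.00674%, 1.4%, 0.00674% and 1.51% of all genes, and with the block 0.0809%, 4.56%, 0.142% and 4.98%. DESeq2 without the block called no member either, beside 0.802%, 3.65%, 1.11% and 3.19% of genes.

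Compared per length in untreated WT cells, the order was *Stk25* (145 ± 8.31 TPM, SD, n = 3), *Heg1* (133 ± 23.4), *Ccm2* (76.7 ± 3.76), *Ccm2l* (50.7 ± 16.2), *Stk24* (35.7 ± 3.38), *Pdcd10* (33.2 ± 20.0), *Krit1* (16.0 ± 2.51) and *Stk26* (0.0229 ± 0.0248). *Heg1* lay above *Ccm2*, and *Ccm2* above *Ccm2l*, in all untreated WT libraries. The neighbours *Stk25* and *Heg1*, *Ccm2l* and *Stk24*, *Stk24* and *Pdcd10*, and *Pdcd10* and *Krit1* overlapped. In untreated KO cells *Heg1* (184 ± 40.5 TPM) had the highest mean and *Ccm2l* (98.6 ± 13.2) lay above *Ccm2* (79.7 ± 3.45) in every untreated library. *Stk24* and *Stk25* transcripts outnumbered those of *Stk26* in every library.

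**Figure D5:**
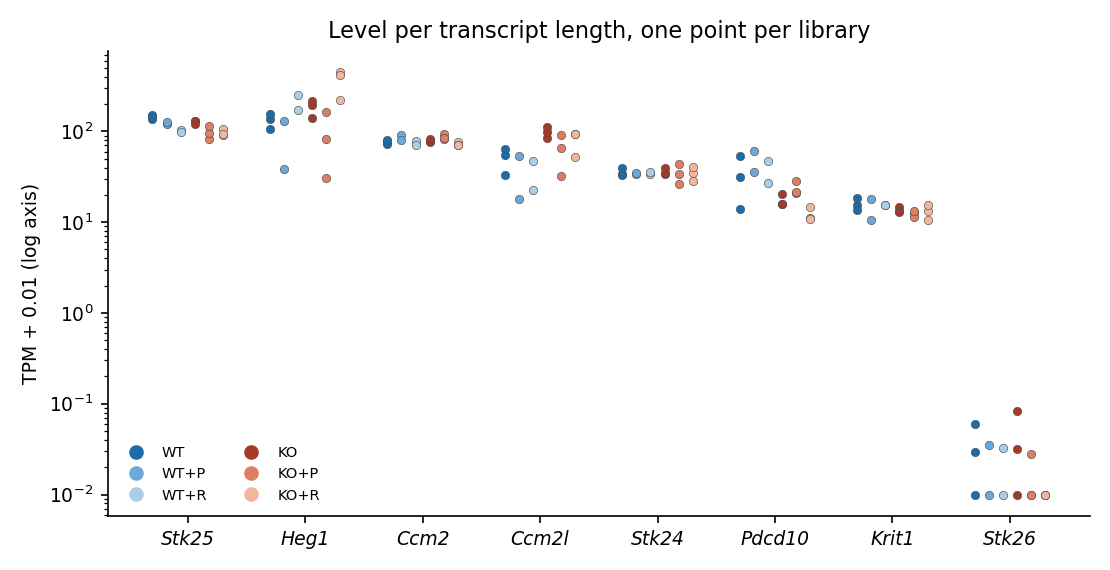
Level of the 8 members per transcript length in TPM plus 0.01 on a log axis (vertical axis), ordered by the WT mean (horizontal axis), with 1 point per library coloured by group. *Stk26* lies below 0.1 TPM in all groups, and *Heg1*, *Ccm2l* and *Pdcd10* spread more widely than the other members.

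The genes around the complex were counted in lists. Of 9 binding partners and components of the MEKK3 arm (*Itgb1bp1*, *Rap1a*, *Rap1b*, *Rasip1*, *Map3k3*, *Map2k5*, *Mapk7*, *Klf2* and *Klf4*), 2 rose in KO cells and none fell, beside 0.883% of all genes called higher and 0.876% called lower. At an unadjusted p below 0.05 there were 5 of the 9, beside 16.7% of all genes, and the list median was 0.23 against −0.01 over all tested genes. *Klf2* was at 82.8 to 276 CPM in WT and 431 to 572 CPM in KO (1.25, SE 0.26, adjusted p = 0.0234). *Klf4* was at 28.5 to 106 CPM in WT and 149 to 219 CPM in KO (1.41, SE 0.27, adjusted p = 0.0174). Both transcription factors are activated downstream of MEKK3 and ERK5. The kinase genes themselves did not pass the test, among them *Map3k3*, which encodes MEKK3 (−0.19, SE 0.12, adjusted p = 0.457), and *Rap1a*, a small GTPase that recruits KRIT1, differed by 0.49 (SE 0.13, adjusted p = 0.072). Leaving out 1 library kept the *Klf2* call in 11 of 16 fits and the *Klf4* call in 15 of 16.

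None of the 15 STRIPAK subunits was called between genotypes by edgeR or DESeq2 (1 at an unadjusted p below 0.05 by either), beside 1.76% and 3.71% of all genes called and 16.7% at that unadjusted p by edgeR, and the list median was −0.11. *Ppp2r1b*, a scaffold subunit of the phosphatase PP2A, differed by −0.33 (SE 0.07, adjusted p = 0.0336), under the 1.5-fold limit. The largest difference, that of *Strip2* (−0.39, SE 0.74, adjusted p = 0.852), concerned a gene below 1 CPM in every library, and *Cttnbp2* differed by −0.27 (SE 0.31, adjusted p = 0.735).

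Among 9 adaptors and substrates of the GCKIII kinases none was called between genotypes by edgeR (1 at an unadjusted p below 0.05) or DESeq2 (2 at that p), and the list median was −0.03. The percentages over all genes were the same as for the STRIPAK list. *Ezr*, an actin linker of the plasma membrane, differed by 0.46 (SE 0.27, adjusted p = 0.43), the kinase gene *Stk38l* by 0.45 (SE 0.23, adjusted p = 0.343) and *Unc13d*, which acts in granule exocytosis, by −0.40 (SE 0.25, adjusted p = 0.47). Under drugs, *Stk38l* differed by 1.55 between KO+P and KO (adjusted p = 0.199) and passed the test with the replicate block (1.49, SE 0.23, adjusted p = 0.0281, against 0.142% of genes called). *Msn*, encoding the membrane linker moesin, differed by 0.66 between WT+R and WT (adjusted p = 0.302) and passed with the block (0.69, SE 0.18, adjusted p = 0.0466, against 4.56% called).

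Of 5 neighbours of *Pdcd10* on chromosome 3, *Serpini2*, *Wdr49* and *Zbbx* failed the filter on low counts. *Serpini1*, which starts on the opposite strand at position 75464800, just beyond the *Pdcd10* start at 75464748, did not differ between genotypes beyond its error (−0.09, 95% interval −0.60 to 0.43, adjusted p = 0.907), nor did *Golim4* (0.02, 95% interval −0.19 to 0.24). *Serpini1* was at 9.49 to 13.4 CPM in KO and 3.39 to 7.01 CPM in KO+R (−1.06, adjusted p = 0.247, and −1.10, adjusted p = 0.00658, with the replicate block, against 4.98% called).

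The genes whose profile over the 16 libraries was most like that of *Pdcd10* were looked for among the other 12409 tested genes averaging 1 CPM or more, by the root mean square difference of centred log2 CPM values. They were *Dtx4* (0.482), *Glis3* (0.536), the long noncoding gene *Gm47547* (0.552), *Glipr2* (0.584) and *Lamb1* (0.591), where a flat profile scored 0.978. In the library labelled WT replicate 1, *Glipr2* (41.0 CPM) and *Lamb1* (408 CPM) lay above every KO library (at most 28.8 and 256 CPM), unlike *Pdcd10*. *Dtx4* (0.874 CPM), *Glis3* (2.30 CPM) and *Gm47547* (2.12 CPM) lay within the range of the KO libraries there, as *Pdcd10* did, and this likeness was part of what chose them. *Krit1* scored 0.95, and *Ccm2*, *Stk24* and *Stk25* scored no lower than the flat profile, at 1.00, 1.02 and 0.983, while *Ccm2l* (1.72) and *Heg1* (1.74) were among the genes least like *Pdcd10*.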

How the data were processed

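Poly(A) RNA-seq of 16 mBMEC cultures was used. The submitters' processing notes name Trim Galore 0.6.7, Salmon 1.5.2 and GRCm39, and the files have the columns of Salmon output. The deposited files hold estimated counts per transcript, which need not be whole, and TPM as the authors' Salmon run gave them. STAR, HTSeq and DESeq2 are also named there, and no output of them was used.

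Of 140789 transcripts, 139544 (99.12%, with 99.43% to 99.61% of the counts) were named from GENCODE vM39 and summed to 54193 genes. Sums were rounded. The main test was edgeR 4.0.16 (quasi-likelihood, TMM, filterByExpr, 1 mean per group over all 16 libraries, limma 3.58.1, R 4.3.3) with Benjamini-Hochberg adjustment over 14838 genes. A call needed an adjusted p below 0.05 and a fold change above 1.5. Every p-value in the text comes from edgeR unless DESeq2 1.42.0 is named. Library sizes were 18.83 M to 26.2 M, and the biological coefficient of variation was 32.3% (19% with the replicate block). The scripts were tested on simulated data. Transcript versions differ from GENCODE vM39 for *Pdcd10-205* and *Pdcd10-201*, and the exons between the loxP sites are not given in the sources used here. Primer sequences came from the study's oligonucleotide list and were located in GRCm39.

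Groups were taken from the sample labels. Members and gene lists were chosen with earlier results of these data known. Named genes were all members and *Pdcd10* transcripts, list genes called in any comparison with or without the block, up to 3 per list with the largest genotype difference, *Serpini1*, and the 5 genes most like *Pdcd10*. *Map3k3* was named after its value was seen. The genes of 1 list are not reported here. Replicate numbers were taken to pair cultures, since deviations from the group means correlated above 0.1 in every same-numbered pair of directly compared groups (0.19 to 0.69). Over all groups the same-numbered pairs ran from 0.032 to 0.69 (median 0.52). Differently numbered pairs ran from −0.69 to 0.40 (median −0.23), so the ranges overlapped. Deviations sum to 0 within a group, so positive values in same-numbered pairs force negative ones among the others. The differently numbered pairs are therefore not an independent baseline for the pairing. Alternatives were DESeq2, RLE size factors, no filter on low counts, the replicate block, leaving out each library, and, chosen after seeing the data, DESeq2 with the block and the block without WT replicate 1.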

Additional observations from a re-analysis of the deposited data

How the results depend on the processing

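Small member differences could not be separated from 0 at this depth and replication, and most settings below concern them. The *Pdcd10* decrease averaged over treatments was called under every setting run. Of 63 member results 20 changed sign under some setting, none of them called in the main test, and the causes were not tested.

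Between untreated KO and WT, *Pdcd10* passed the threshold with DESeq2 (−1.562), with DESeq2 and the replicate block (−1.519) and with the block without WT replicate 1 (−2.02), and leaving out 1 library gave −1.96 to −1.08. In edgeR the replicate block changed no member call but that of *Ccm2l* averaged over treatments, and in DESeq2 it added those of *Heg1* for both drugs in KO.

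In the order DESeq2, replicate block, block without WT replicate 1, and DESeq2 with block, the called genes were 64, 27, 66 and 396 for KO against WT (main 1), 59, 13, 8 and 263 for KO+P against WT+P (main 0), 77, 14, 32 and 304 for KO+R against WT+R (main 0), 550, 663, 733 and 892 for the mean KO against WT (main 261), 119, 12, 0 and 157 for WT+P against WT (main 1), 542, 677, 405 and 978 for WT+R against WT (main 207), 164, 21, 22 and 933 for KO+P against KO (main 1), and 473, 739, 708 and 1123 for KO+R against KO (main 224). The interaction gave 4 with DESeq2 and the block (main 0). Without the filter on low counts 5, 2, 7, 36 and 52 genes were called for KO against WT, KO+P against WT+P, KO+R against WT+R, WT+P against WT and KO+P against KO. With 1 library left out these counts ran, in the same order of 8 comparisons, from 0 to 2, 0 to 3, 0 to 0, 88 to 287, 0 to 546, 25 to 140, 1 to 332 and 51 to 87. The highest counts were those without WT+P replicate 2 (546) and without KO+P replicate 3 (332), and the lowest for the mean KO against WT (88) and for WT+R against WT (25) were both without WT+R replicate 1. Called transcripts numbered 934 with DESeq2, 314 with the block and 15 to 119 with 1 library left out (main 91).

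Sign changes under the block without WT replicate 1 were −0.09471 for *Pdcd10* in WT+R against WT, −0.005338 and −0.01107 for *Ccm2* in WT+P and WT+R against WT, and 0.0147 for *Serpini1* between genotypes. *Ccm2* in KO+R against WT+R was 0.00107 with DESeq2, 0.001622 with RLE size factors, 0.002444 with the block, 0.01301 with the block without WT replicate 1 and 0.01538 with DESeq2 and the block. Under the block, the block without WT replicate 1, and DESeq2 with the block, *Stk24* was −0.0277, −0.03112 and −0.02049 in KO+P against WT+P, −0.03745, −0.03861 and −0.02399 in KO+R against WT+R, and 0.01192, 0.08797 and 0.001225 in WT+P against WT. Averaged over treatments it was −0.01683 with the block and −0.0106 with DESeq2 and the block, and *Stk25* in KO+R against WT+R was 0.01166 with the latter.

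With 1 library left out, differences that changed sign ranged as follows. *Ccm2* ran from −0.018 to 0.158 in KO+P against KO, −0.146 to 0.00855 in KO+R against KO, −0.114 to 0.113 in KO+R against WT+R, −0.0592 to 0.146 in WT+P against WT and −0.0806 to 0.146 in WT+R against WT. *Krit1* ran from −0.173 to 0.0396 in KO+P against KO, −0.448 to 0.416 in KO+P against WT+P, −0.0318 to 0.192 in KO+R against KO, −0.678 to 0.186 in WT+P against WT, −0.00978 to 0.0963 in WT+R against WT and −0.256 to 0.0322 between genotypes. *Stk24* ran from −0.039 to 0.0598 in KO against WT, −0.186 to 0.0948 in KO+P against KO, −0.0973 to 0.182 in KO+P against WT+P, −0.0469 to 0.125 in KO+R against WT+R and −0.00839 to 0.0847 between genotypes. *Heg1* in KO+P against WT+P ran from −0.489 to 1.32, *Pdcd10* in WT+R against WT from −0.113 to 0.903 and *Stk25* in KO+R against WT+R from −0.122 to 0.107. Between genotypes *Cttnbp2* ran from −0.442 to 0.000404, *Golim4* from −0.0497 to 0.12, *Serpini1* from −0.243 to 0.158 and *Strip2* from −0.683 to 0.581.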
